A study of Mus musculus with 25 samples.

Results

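The genes described here encode subunits and assembly factors of respiratory complexes I, II, III and V, measured in injured mouse muscle. They were chosen by name, as every gene whose symbol begins with Nduf, Sdh, Uqc or Atp5 and that has a probe set annotated to that symbol alone. This gave 61 genes out of 8252 named on the array, with 31 in complex I, 6 in complex II, 10 in complex III and 14 in complex V. Where a gene had several probe sets, the one brightest on average over the arrays was used, and 60 of the 61 passed the filter on low values. Ndufa12, an accessory subunit of complex I, did not pass, and its signal lay between 4.8 and 34.4 units on the 25 arrays. Complex IV genes do not share these name prefixes and appear below only as a list for comparison.

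Total RNA of tibialis anterior muscle, a fast muscle at the front of the lower leg, was measured on 25 Affymetrix arrays, 1 per sample. All groups were female C57BL/6J mice aged 2 to 3 months, and the labels name no further genetic change. In the contraction groups the muscle was injured by 150 eccentric contractions in vivo, in which an active muscle is lengthened. In the freeze groups a steel probe of 6 mm diameter at the temperature of dry ice was held to the muscle for 10 s. Muscles were taken 6 hours after either injury and again at 1, 3 and 7 days, with 3 samples per group except in the 1 day contraction and 7 day freeze groups, which had 2 each. The 3 controls were uninjured muscles. The labels do not say whether samples came from separate mice, so p-values measure the spread between samples.

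Complex I takes electrons from NADH, and complex II takes them from succinate, which also makes it an enzyme of the citric acid cycle. Both pass them through ubiquinone to complex III, which hands them on to cytochrome c. Complexes I and III pump protons out of the mitochondrial matrix, and complex V, the ATP synthase, lets them flow back through a ring of c subunits to turn its catalytic F1 head. Muscle fibres are rich in all of these proteins. All of the genes measured here are nuclear, so their proteins are imported into mitochondria, and assembly factors help to build the complexes without staying in them.

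The promoters of the members were searched for motifs of regulators of nuclear mitochondrial genes. RefSeq promoters of the GRCm38.p6 build, running from 250 bases before to 50 after a gene's start, were matched for 52 members. RefSeq gives some genes several starts, so the 52 had 57 promoters, and a gene was counted where any of its promoters held a motif. Both strands were searched for exact matches. GCGCATGCG, the nuclear respiratory factor 1 motif, was found in 7 of the 52 (13.5%), against 3.84% of 5540 tested genes and 1.75% of 32851 promoters. AAGATGGCG, the YY1 motif, was found in 5 (9.62%), against 3.32% of tested genes and 1.4% of promoters. CCGGAAGT, the ETS family motif bound by GABP, was found in 3 (5.77%), against 8.65% and 3.89%, and TCAAGGTCA, the oestrogen related receptor motif, in 1 (1.92%, Sdhd), against 0.289% and 0.423%. Any of these motifs was present in 15 members (28.8%) and in 15.1% of tested genes. A match is a description of the sequence and not a measured binding site. The 8 stretches below are those with a match wholly before 1 of the starts RefSeq gives the gene, written 5′ to 3′ along the gene's strand with the matched bases in capitals. In Ndufaf4, Atp5k and Atp5g2 the nuclear respiratory factor 1 motif overlaps its own match on the other strand. The stretch of Atp5j precedes the inner of its 2 starts and lies within the gene's full span.
Ndufaf4, GRCm38.p6 chr4:24897950-24897999, plus strand: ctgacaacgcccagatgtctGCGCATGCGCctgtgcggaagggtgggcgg
Atp5k, GRCm38.p6 chr5:108434420-108434469, minus strand: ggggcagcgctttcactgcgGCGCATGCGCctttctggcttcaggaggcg
Atp5g2, GRCm38.p6 chr15:102671060-102671109, minus strand: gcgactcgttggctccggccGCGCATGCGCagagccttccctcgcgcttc
Ndufa8, GRCm38.p6 chr2:36049339-36049367, minus strand: cgcttgcgcgtcgctggagaCGCATGCGC
Atp5l, GRCm38.p6 chr9:44920955-44920992, minus strand: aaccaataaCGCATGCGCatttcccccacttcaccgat
Uqcr11, GRCm38.p6 chr10:80406860-80406907, minus strand: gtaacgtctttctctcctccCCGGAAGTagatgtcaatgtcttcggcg
Uqcrh, GRCm38.p6 chr4:116075071-116075101, minus strand: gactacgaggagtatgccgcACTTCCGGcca
Atp5j, GRCm38.p6 chr16:84835036-84835084, minus strand: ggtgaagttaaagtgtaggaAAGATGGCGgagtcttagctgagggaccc

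Of the freeze samples at 3 days, the one numbered 436 stood apart and must be known before any result. Over all probe sets it correlated with the other samples of its group at 0.8 to 0.802 and with the controls at 0.947 to 0.952, while other pairs within a group correlated at 0.938 to 0.976. Over the 61 members it lay a median of 0.34 above the control mean on the log2 scale, and 20 members fell within the range of the 3 controls. Counts, and differences at 3 days after freeze, are therefore given with all 25 arrays and without sample 436. Differences that do not involve that group have the same size in both fits, and only their errors and p-values change. The model shares 1 estimate of the spread over the groups, whose median SD was 0.385 with all arrays and 0.323 without 436, so leaving out this sample also moves the other comparisons. The number of arrays limits the precision throughout.

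The respiratory genes were lower than in control muscle 1 day after freeze and 3 days after both injuries, lowest at 3 days after freeze, and close to control 7 days after contraction. Averaged over the 61 members, the controls lay at 0.13, 0.08 and -0.21 around their own mean on the log2(signal + 13) scale. The freeze samples lay at -0.42, -0.88 and -0.47 at 1 day and at 0.28 (sample 436), -1.4 and -1.49 at 3 days, and the contraction samples at -0.9, -0.55 and -0.56 at 3 days. At 7 days the contraction samples were at -0.07, 0.03 and 0.05, inside the range of the controls, and the freeze samples at -0.31 and -0.32, below it. In these bulk samples, fewer muscle fibres and less RNA per fibre cannot be told apart.

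**Figure D1:**
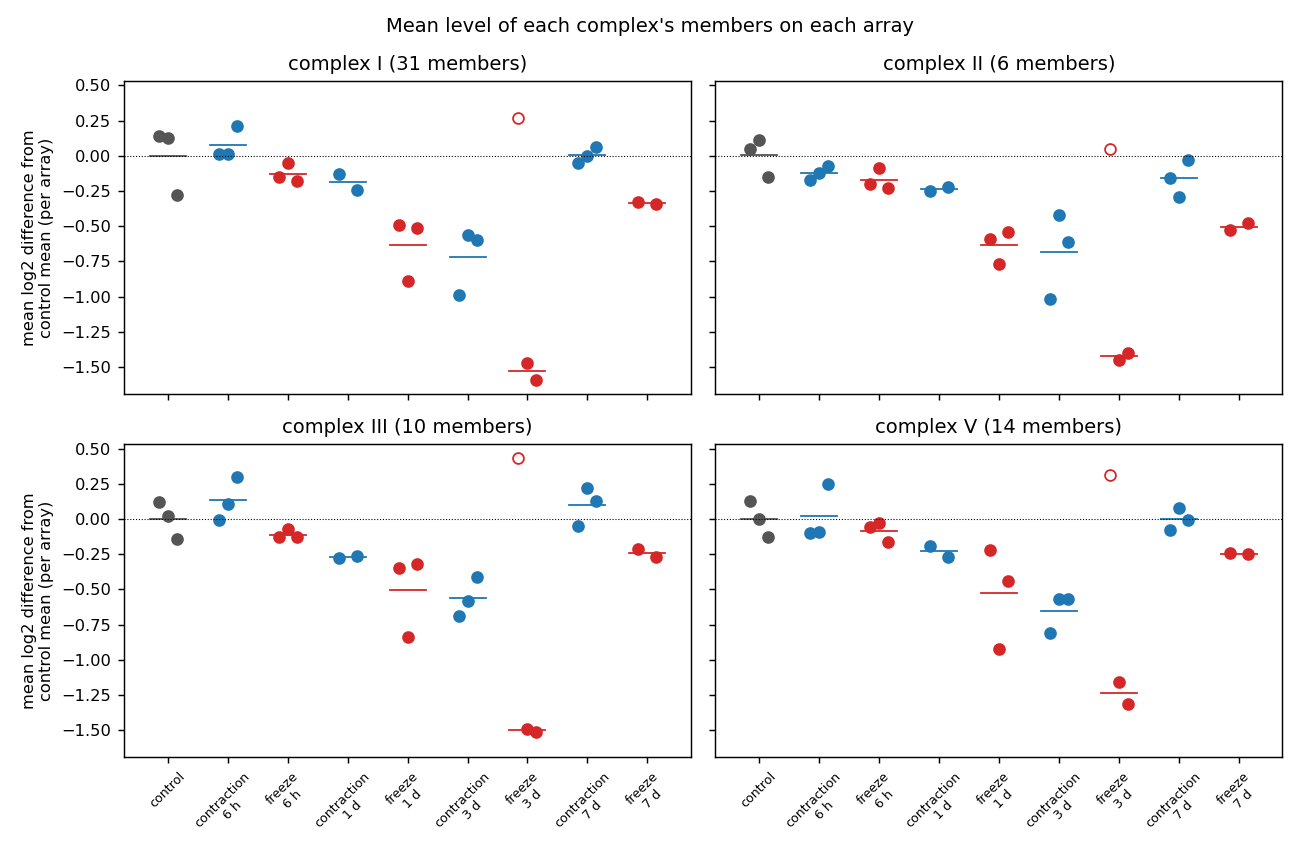
Mean log2 difference from the control mean over the members of each complex (vertical axis) on each of the 25 arrays, by group (horizontal axis); points are arrays, bars are group means, and the open point is sample 436, left out of its bar. In each complex the other 2 freeze samples at 3 days are the lowest points; for complex I they lie at -1.47 and -1.59, against -0.99, -0.56 and -0.6 for contraction at 3 days.

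Members were called lower or higher than control at an adjusted p under 0.05, from limma with Benjamini-Hochberg adjustment over all 9506 tested probe sets. After freeze at 3 days, 22 of 60 members were called lower with all arrays, where 8.18% of all probe sets were called lower, and 54 of 60 without sample 436, where 20.8% were. This count rests on few arrays: it was 0 without sample 450 or without sample 468, the other 2 of the group, and 5, 8 and 13 without control 1, 2 or 3. Contraction at 3 days gave 3 members lower with all arrays (2.58% of all probe sets) and 37 without sample 436 (9.69%). Freeze at 1 day gave 3 with all arrays (5.06%) and 30 without 436 (12%). With all arrays these 3 of 60 tested members are close to the share of all probe sets. No member was called higher than control in any of the 8 injured groups in either fit. With all arrays the share of all probe sets called higher was 1.63%, 1.63%, 5.67% and 0.473% at the 4 times after contraction, and 3.33%, 9.15%, 9.68% and 3.65% after freeze. Without sample 436 these shares were 2.52%, 3.25%, 13.1% and 2.24%, and 6.42%, 14.8%, 21.6% and 11.7%.

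The counts at the other calling times rest on few arrays as well. For contraction at 3 days the count was 0 without its sample 435, 1 without its sample 467, control 2 or control 3, and 8 or 7 without freeze sample 450 or 468. For freeze at 1 day it was 0 without control 1 or its sample 464, 1 without control 2 or its sample 460, and 5 without freeze sample 450. The 3 members called at 3 days after contraction were Ndufs1, Uqcrc1 and Ndufa9, and the 3 at 1 day after freeze were Ndufs1, Ndufaf1 and Sdhd. The 7 members with no call in either fit were Ndufa1, Ndufc2 and the untested Ndufa12 of complex I, Sdhaf2 of complex II, Uqcc3 of complex III, and Atp5g1 and Atp5j2 of complex V.

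The earlier and later groups gave few or no calls. With all arrays limma called 0 members at 6 hours after either injury, 0 at 1 and 7 days after contraction and 0 at 7 days after freeze. At an unadjusted p under 0.05 there were 1 and 0 at 6 hours after contraction and freeze. There were 2 and 0 at 1 and 7 days after contraction, and 4 at 7 days after freeze. Counts at an unadjusted p, here and below, lack the matching share of all probe sets. The shares given are those called at an adjusted p under 0.05. The share of all probe sets called lower was 0.242% and 1.51% at 6 hours after contraction and freeze, 0.158% and 0.0631% at 1 and 7 days after contraction, and 1.64% at 7 days after freeze. Without sample 436, Ndufaf1 was the 1 member called lower at 1 day after contraction (1.08% of all), and 9 were at 7 days after freeze (7.83%). There were 0 at 6 hours after contraction (0.831%), at 6 hours after freeze (4.98%) and at 7 days after contraction (0.789%), with 2, 3 and 7 at an unadjusted p under 0.05.

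The lower values were shared by the 4 complexes. After freeze at 3 days without sample 436, the median log2 difference from control was -1.68 in complex I, -1.41 in complex II, -1.54 in complex III and -1.33 in complex V, and -0.12 over all tested probe sets. With all arrays the same medians were -1.01, -0.94, -0.91 and -0.78. At 3 days after contraction they were -0.73, -0.82, -0.57 and -0.69, and at 1 day after freeze -0.61, -0.7, -0.55 and -0.52. Differences between the complexes were not tested. All 61 members had a mean below control 1 day after freeze, 58 did 3 days after contraction and 60 did 3 days after freeze, the last with and without sample 436. The matching shares of all probe sets are not given.

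**Figure D2:**
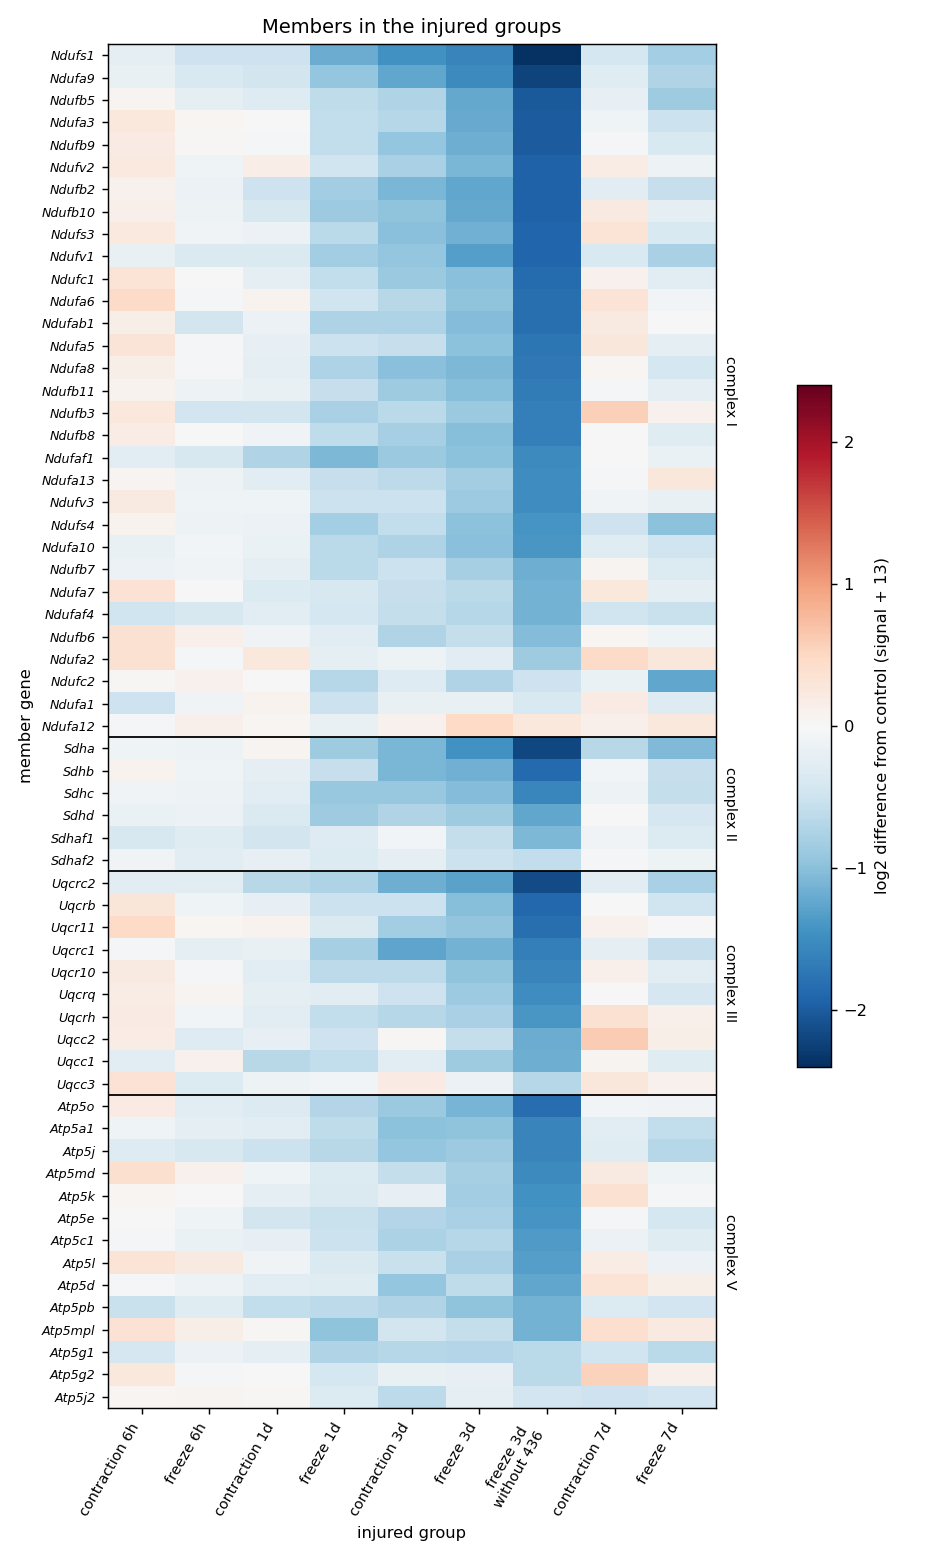
Colour gives the log2 difference from control of signal + 13 for each of the 61 members (vertical axis, by complex and by the value at 3 days after freeze without sample 436) in the 8 injured groups (horizontal axis), with freeze at 3 days shown with and without sample 436. Blue is lower than control and fills both 3 day columns and the freeze column at 1 day, while Ndufa12, Ndufa1 and Ndufc2 at the bottom of complex I are pale at 3 days without 436, at 0.25, -0.37 and -0.50.

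In complex I, the core subunits had the lowest median of the 3 classes, and Ndufs1 the lowest value of any member at 3 days after either injury. Ndufs1, the largest iron-sulfur subunit of the NADH-oxidising arm, had signals of 2375.6, 2763.1 and 3079.8 in the controls, 1127.2, 1143.4 and 1279.5 at 1 day after freeze, and 743.4, 1269.7 and 999.0 at 3 days after contraction. At 3 days after freeze it was at 2634.5 in sample 436 and at 488.8 and 547.8 in the others. Apart from sample 436, no sample of these groups reached the lowest control. Its log2 difference from control was -1.20 ± 0.38 (SE, n = 3 against 3, limma adjusted p = 0.0402) at 1 day after freeze and -1.46 ± 0.38 (adjusted p = 0.0242) at 3 days after contraction. After freeze at 3 days it was -1.59 ± 0.38 (limma adjusted p = 0.0146), and without sample 436 it was -2.37 ± 0.19 (adjusted p = 1.13e-09), or 5.16-fold lower.

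Ndufv1, the flavoprotein that binds NADH, showed little spread among the controls, at 6315.8, 6180.2 and 6481.6. It was at 4034.6, 3055.0 and 3668.0 1 day after freeze, at 3286.5, 3194.1 and 3542.2 3 days after contraction, and at 5732.2 (sample 436), 1602.9 and 1764.1 at 3 days after freeze. All of these lie below the controls, sample 436 included. It fell by 1.32 on the log2 scale after freeze at 3 days with all arrays (SE 0.32, limma adjusted p = 0.0147) and by 1.9 without sample 436 (SE 0.17, adjusted p = 8.58e-09). The 4 core subunits on the array, which also include Ndufs3 of the quinone-binding arm and the iron-sulfur subunit Ndufv2, lay between -2.37 and -1.90 in that group without 436, with a median of -1.92 (-1.23 with all arrays).

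The 25 accessory subunits, which surround the core and hold the complex together, had a median of -1.65 after freeze at 3 days without sample 436, and 22 of the 24 tested were called lower. With all arrays 10 were called, with a median of -0.99. Ndufa9 moved the most of them. Its signals were 3566.2, 3156.2 and 3183.8 in the controls, 1138.5, 1421.6 and 1614.8 at 3 days after contraction, and 3062.6 (sample 436), 667.9 and 719.1 at 3 days after freeze. The contraction samples were all below the lowest control, with a log2 difference of -1.25 ± 0.37 (SE, n = 3 against 3, limma adjusted p = 0.0425), and Ndufa9 also fell after freeze, by 1.52 (SE 0.37, adjusted p = 0.0149), or by 2.23 without sample 436 (adjusted p = 2.35e-08).

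Ndufb2, an accessory subunit of the membrane arm, had a wide control range of 3912.3 to 7143.7 and 2336.4, 2468.2 and 2951.7 at 3 days after contraction. It passed the test after freeze at 3 days in both fits, at -1.25 with all arrays (limma adjusted p = 0.0346) and -1.94 without sample 436 (adjusted p = 1.82e-06). Ndufab1, the mitochondrial acyl carrier protein, had signals of 2609.9, 3255.5 and 1775.7 in the controls and 3435.0 (sample 436), 698.1 and 696.8 at 3 days after freeze. Its difference was -1.05 with all arrays (limma adjusted p = 0.0868) and -1.81 without sample 436 (adjusted p = 1.71e-05).

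Ndufa2, another accessory subunit, was at 795.5, 926.4 and 634.8 in the controls and 613.1, 805.3 and 741.0 at 3 days after contraction, so the groups overlap (log2 difference -0.12, limma adjusted p = 0.844). At 3 days after freeze it was at 1503.7 in sample 436, above every control, and at 488.3 and 367.4, below every control (-0.26 with all arrays; -0.85, limma adjusted p = 0.00183, without sample 436). Ndufa1 is dim, at 28.3 to 103.3 in the controls and 34.1 to 61.0 at 3 days after freeze, and was not called in either fit. Ndufc2, dimmer still at 26.3 to 47.2 in the controls, had signals of 5.0 and 8.9 at 7 days after freeze. These lie below the 13 units added before log2, so the size of its difference there carries little information, and it was not called. It ranged from 7.3 to 39.6 at 3 days after contraction.

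Both assembly factors of complex I on the array were called lower 3 days after either injury without sample 436. Ndufaf1, which joins membrane-arm intermediates, was at 426.4, 458.4 and 331.9 in the controls and 184.5, 189.2 and 176.4 at 1 day after freeze. These do not overlap, and the log2 difference was -1.08 ± 0.29 (SE, n = 3 against 3, limma adjusted p = 0.0173). At 1 day after contraction it was at 268.4 and 214.0, below every control, a log2 difference of -0.72 (adjusted p = 0.439 with all arrays and 0.0267 without sample 436). Ndufaf4, whose promoter holds the nuclear respiratory factor 1 motif shown above, had a log2 difference of -0.68 after freeze at 3 days with all arrays and -1.14 without sample 436.

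All 4 subunits of complex II fell 3 days after freeze, in both fits. Sdha, the flavoprotein that oxidises succinate, was at 768.5, 1150.5 and 586.4 in the controls and at 820.5 (sample 436), 166.0 and 165.8 in that group. Without sample 436 it was 4.57-fold lower, a log2 difference of -2.19 ± 0.33 (SE, n = 2 against 3, limma adjusted p = 1.14e-05); with it the difference was -1.45 ± 0.44 (adjusted p = 0.0312). Sdhb, the iron-sulfur subunit, was at 4706.4, 4441.4 and 4188.8 in the controls and at 5177.6 (sample 436), 1290.8 and 1147.2 after freeze. Apart from 436 the freeze samples are far under the controls, and the difference was -1.16 (adjusted p = 0.0347) with all arrays and -1.86 (adjusted p = 1.45e-07) without.

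At 1 day after freeze all 4 subunits had every sample below every control. Sdhd, which with Sdhc anchors the enzyme in the inner membrane, was at 3394.6, 2474.7 and 3378.2 in the controls and at 2012.3, 1304.9 and 1825.4 at 1 day after freeze, a log2 difference of -0.85 ± 0.26 (SE, n = 3 against 3, limma adjusted p = 0.0338). Sdhc was at 2903.2, 2856.5 and 3071.8 in the controls and at 1521.4, 1599.1 and 1547.4 at 1 day after freeze and just missed the call (-0.91 ± 0.31, adjusted p = 0.0513; 0.000696 without sample 436). Sdha, at 340.4, 451.1 and 546.0, had a difference of -0.86 (limma adjusted p = 0.198; 0.0358 without sample 436). Sdhb, at 3643.7, 2290.5 and 3345.1, had -0.55 (limma adjusted p = 0.324; 0.0298 without sample 436). The complex II assembly factors had smaller differences: at 3 days after contraction Sdhaf1 was at 311.2 to 349.4 against 346.6 to 357.9 in the controls (-0.07), and Sdhaf2 at 86.1 to 168.4 against 94.8 to 206.4 (-0.22). Neither was called with all arrays in any group, and Sdhaf1 was called lower without sample 436 at 3 days after freeze (-1.07, limma adjusted p = 0.00265; -0.57 with all arrays).

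In complex III, 2 of the 7 subunits, the large core proteins Uqcrc1 and Uqcrc2, were called lower 3 days after freeze with all arrays, and all 7 without sample 436. Uqcrc1 was at 4387.8, 4158.6 and 4655.0 in the controls, 1800.1, 1763.1 and 1940.5 at 3 days after contraction, and 4034.3 (sample 436), 1321.3 and 1479.7 at 3 days after freeze. The contraction samples lie close together and well below the lowest control. It fell after contraction by 1.26 on the log2 scale (SE 0.29, n = 3 against 3, limma adjusted p = 0.0134) and after freeze by 1.14 (SE 0.29, adjusted p = 0.0171), or by 1.64 without sample 436 (adjusted p = 1.45e-07). Uqcrc2, the other core protein, ranged from 2599.4 to 5167.8 in the controls and was at 1570.7, 1724.8 and 1458.9 at 3 days after contraction and 4850.5 (sample 436), 818.7 and 793.1 at 3 days after freeze. It passed the test after freeze with all arrays (-1.28, adjusted p = 0.049) and without 436 (-2.14, adjusted p = 3.21e-07).

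Of all members, Uqcrb, a small subunit of complex III, had the largest difference between the injuries at 3 days without sample 436. It was at 2427.5, 2801.8 and 2695.1 at 3 days after contraction and 6165.6 (sample 436), 1006.9 and 1008.5 at 3 days after freeze, against 3037.5 to 4603.7 in the controls. Freeze minus contraction was -1.38 ± 0.21 (SE, n = 2 against 3, limma adjusted p = 8.59e-05) without sample 436 and -0.51 (adjusted p = 0.848) with it. Uqcr10, at 2496.0 to 4066.2 in the controls, was at 1821.0 to 2428.7 at 3 days after contraction, and its difference after freeze was -0.96 with all arrays (adjusted p = 0.0551) and -1.58 without sample 436 (adjusted p = 2.2e-06). Uqcr11, whose promoter holds the ETS motif shown above, was at 713.8 and 850.5 in the freeze samples other than 436 at 3 days, against 2421.9 to 3149.2 in the controls (-0.95 with all arrays and -1.81 without sample 436). The assembly factor Uqcc3 was at 69.5 to 117.1 in the controls and 95.5 to 123.7 at 3 days after contraction, and it was not called in any group in either fit.

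**Figure D3:**
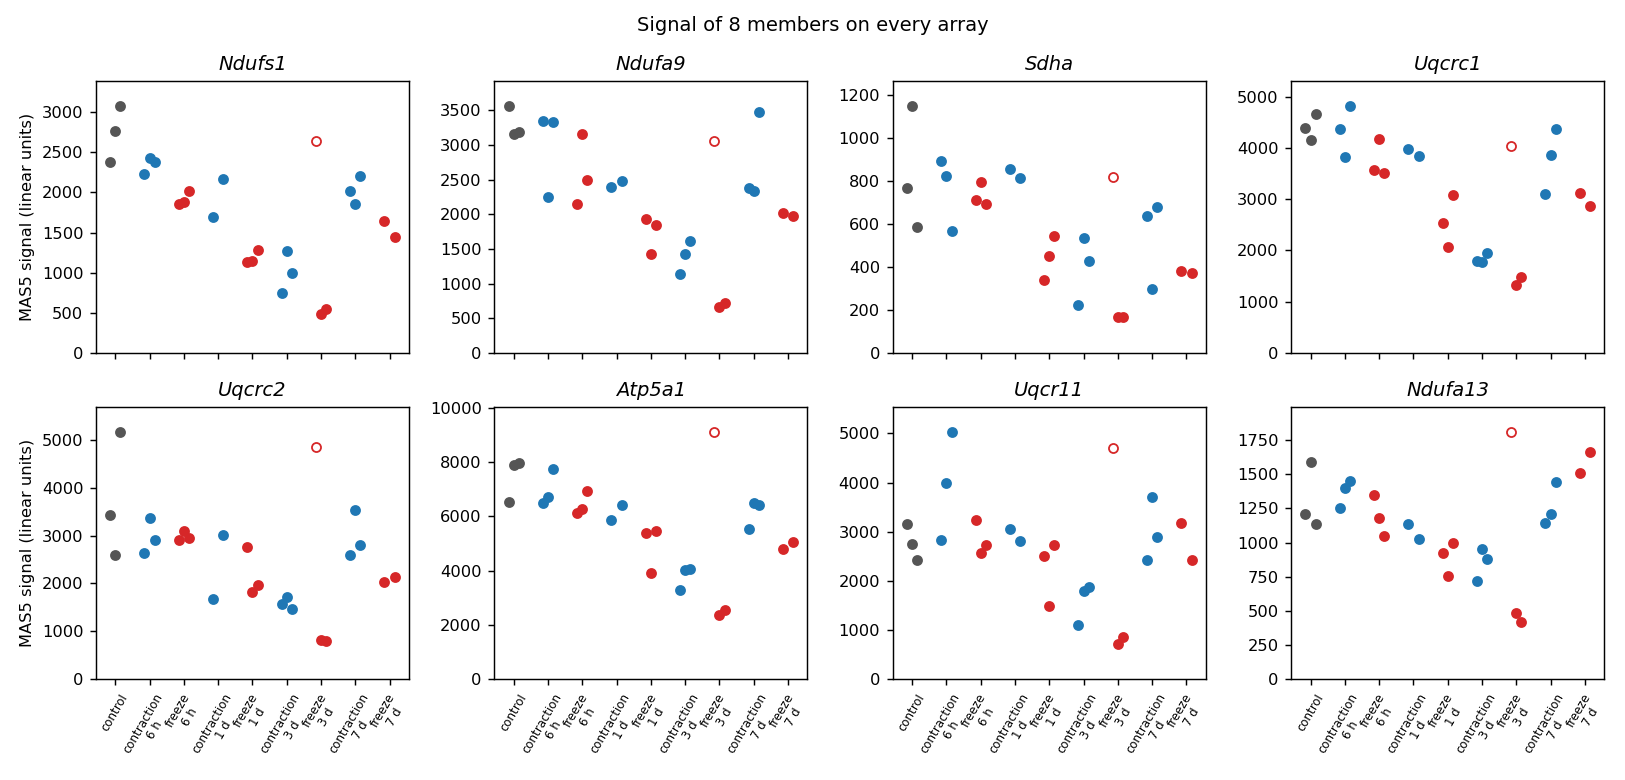
MAS5 signal on a linear scale (vertical axes, starting at 0) on every array for 8 members, by group (horizontal axis); each point is an array and the open point is sample 436. Ndufs1, Ndufa9, Sdha, Uqcrc1, Uqcrc2 and Atp5a1 are still under the lowest control in both freeze samples at 7 days, while Uqcr11 and Ndufa13 are back within or above the control range, Ndufa13 at 1507.9 and 1663.9.

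In complex V, all 4 members of the F1 head and all 3 of the stalk were called lower 3 days after both injuries without sample 436. Atp5a1, the alpha subunit of the F1 head, was at 6551.8, 7910.4 and 7974.7 in the controls, 3287.0, 4041.6 and 4066.9 at 3 days after contraction, and 9119.1 (sample 436), 2364.0 and 2554.5 at 3 days after freeze. The contraction samples and the other freeze samples lie below every control. The log2 difference after contraction was -0.98 ± 0.34 (SE, n = 3 against 3, limma adjusted p = 0.074; 0.000124 without sample 436), and after freeze -0.97 with all arrays (adjusted p = 0.0527) and -1.59 without 436 (adjusted p = 2.39e-07). Atp5d, the delta subunit of the same head, was at 497.0 to 744.8 in the controls and 227.1 to 367.3 at 3 days after contraction (-0.92, adjusted p = 0.174; 0.0362 without sample 436). Atp5d has 5 probe sets, and the one used, with a mean signal of 549, fell the most there. The others gave -0.58 (mean signal 515), -0.52 (306), -0.43 (62.8) and 0.40 (29.1).

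Among the stalk members, Atp5o, the oligomycin sensitivity conferring protein, was at 4309.3, 4482.2 and 4019.7 in the controls and 5233.2 (sample 436), 1180.4 and 1194.5 at 3 days after freeze, and passed the test with all arrays (-1.12 ± 0.39, limma adjusted p = 0.0487) and without sample 436 (-1.83, adjusted p = 1.39e-06). Atp5pb, subunit b, passed with a smaller spread: 197.0, 195.2 and 218.1 in the controls against 124.4, 94.2 and 77.6, in which sample 436 also lies below every control (-0.97 ± 0.23, limma adjusted p = 0.0146; -1.13 and 0.000612 without it). Atp5j, coupling factor 6, with the YY1 motif shown above before its inner start, was at 2920.5 to 3931.5 in the controls and 1599.7 to 1773.1 at 3 days after contraction, with no overlap, and had a difference of -0.93 (adjusted p = 0.166; 0.0147 without sample 436).

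The 5 membrane members had a median of -0.77 at 3 days after freeze with all arrays and -1.32 without sample 436, when 4 were called lower, and the F1 head had -0.74 and -1.38. Differences between these classes were not tested. The 3 c subunit genes encode the same mature protein, and 2 of them were measured. Atp5g2, with the nuclear respiratory factor 1 motif shown above, was at 520.0, 481.8 and 305.6 in the controls and 292.9, 434.3 and 417.8 at 3 days after contraction, so the groups overlap. Atp5g1 was dim, at 57.0 to 120.5 in the controls and 45.5 to 55.3 at 3 days after freeze. The 2 genes differed by -0.20 (Atp5g2) and -0.70 (Atp5g1) after freeze at 3 days with all arrays. Without sample 436 Atp5g2 was called (-0.64, limma adjusted p = 0.0194) and Atp5g1 was not (-0.65, adjusted p = 0.127). Another probe set of Atp5g1, nearly as bright (mean signal 63.8 against 64.1), gave -0.90 with all arrays and -1.08 without sample 436. Atp5mpl, a small proteolipid of the membrane part, was low at 1 day after freeze, at 2115.8, 1263.8 and 1569.6, but control 3, at 1756.1, lies inside that range.

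The median fall was larger over the subunits than over the assembly factors, a difference that was not tested. After freeze at 3 days without sample 436 the median was -1.59 over the 54 subunits and -1.14 over the 7 assembly factors (-0.97 and -0.57 with all arrays), and at 3 days after contraction -0.72 and -0.22. Brightness moves with this split. The 9 members with a mean control signal under 200 had a median of -0.60 after freeze at 3 days without 436, the 13 members from 200 to 1000 had -1.25 and the 39 brighter ones had -1.68 (-0.52, -0.85 and -1.02 with all arrays). Adding 13 units before taking log2 narrows differences of dim genes, and its part in the split was not tested.

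Freeze and contraction were compared directly at each time. The freeze mean was below the contraction mean for 48 of 61 members at 6 hours, 58 at 1 day, 53 at 3 days (58 without sample 436) and 58 at 7 days, against 47.4%, 53.2%, 53% (52.3%) and 52.5% of all probe sets. The median difference was -0.20, -0.36, -0.22 (-0.84 without 436) and -0.36. With all arrays limma called 0 members lower or higher at any time, and at an unadjusted p under 0.05 there were 0, 1, 0 and 1. Of all probe sets 0.0526%, 0.736%, 0.347% and 0% were called lower and 0.252%, 0.715%, 0.0421% and 0.368% higher at the 4 times. Without sample 436 there were 0 members lower at 6 hours (0.547% of all probe sets), 3 at 1 day (3.72%), 41 at 3 days (8.1%) and 1 at 7 days (1.63%). Of 60 tested members, the 3 at 1 day and the 1 at 7 days are close to those shares. None was called higher, where 1.81%, 6.42%, 8.85% and 5.64% of all probe sets were, and 6 members at 6 hours had an unadjusted p under 0.05.

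The 3 at 1 day were Ndufs1 (-0.69, limma adjusted p = 0.0181), Uqcrc1 (-0.63, adjusted p = 0.0287) and Atp5mpl (-0.99, adjusted p = 0.0344), and the 1 at 7 days was Ndufs3 (-0.68, adjusted p = 0.0223). The 41 at 3 days were 24 in complex I, 4 in complex II, 8 in complex III and 5 in complex V. The largest after Uqcrb were Ndufa3 (-1.32) and Ndufb5 (-1.28), accessory subunits of complex I, and Atp5k, subunit e of complex V (-1.25). Uqcrc1 was not among them, at -0.39 (adjusted p = 0.156). A test of whether the difference between injuries changed with time called 0 members with all arrays (0.589% of all probe sets) and 1 without 436 (4.45%), Ndufa13, an accessory subunit of complex I (limma adjusted p = 0.033). At an unadjusted p under 0.05 there were 0 with all arrays and 12 without 436.

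By 7 days the average over the members lay within the control range after contraction and below it after freeze. The averages of complexes I and V did the same. After contraction complex II lay at -0.16, -0.29 and -0.03, against controls from -0.15 to 0.11. Complex III lay at -0.05, 0.22 and 0.13, against controls from -0.14 to 0.12. The median of the differences between 7 and 3 days was 0.72 after contraction and 0.58 after freeze (1.30 without sample 436). With all arrays limma called 0 members higher at 7 days than at 3 days for either injury. Of all probe sets, 0.368% and 0.715% were called higher and 0.473% and 0.0947% lower. At an unadjusted p under 0.05 there were 28 and 6 members, and the share of all probe sets at that threshold is not given. Without sample 436, 39 members (5.26% of all) rose after contraction and 48 (8.22%) after freeze, and none fell, where 7.88% and 8.87% of all did. The highest after contraction was Ndufs3, from 1325.1, 1805.0 and 1659.9 to 3800.5, 3872.1 and 4374.9, above every control (2961.9 to 3517.3).

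In the freeze group at 7 days, 27 members had both samples below every control, where 23.7% of all probe sets did, so this count is read against a high background. The 9 called lower without sample 436 were Ndufs1 (-0.82), Ndufv1 (-0.77), Sdha (-1.06), Uqcrc1 (-0.56), Uqcrc2 (-0.78), Atp5a1 (-0.59), Ndufa9 (-0.72), Ndufb5 (-0.85) and Ndufs4 (-0.99). Their limma adjusted p ran from 0.00266 to 0.0344, and from 0.106 to 0.347 with all arrays. Sdha was at 382.4 and 373.5 against a lowest control of 586.4. Atp5a1 was at 4790.9 and 5073.2 against 6551.8. Ndufs4, an accessory subunit of the NADH-oxidising arm, was dim at 39.2 and 63.0 against 80.7.

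Other members had returned. Ndufa13 went from 483.4 and 418.6 at 3 days after freeze, sample 436 left out, to 1507.9 and 1663.9 at 7 days, against 1211.6, 1590.8 and 1134.8 in the controls. Ndufab1 was at 2328.9 and 2625.9 and Atp5o at 4238.3 and 3784.5, at or close to their controls. Whether members differ from each other in their return was not tested.

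**Figure D4:**
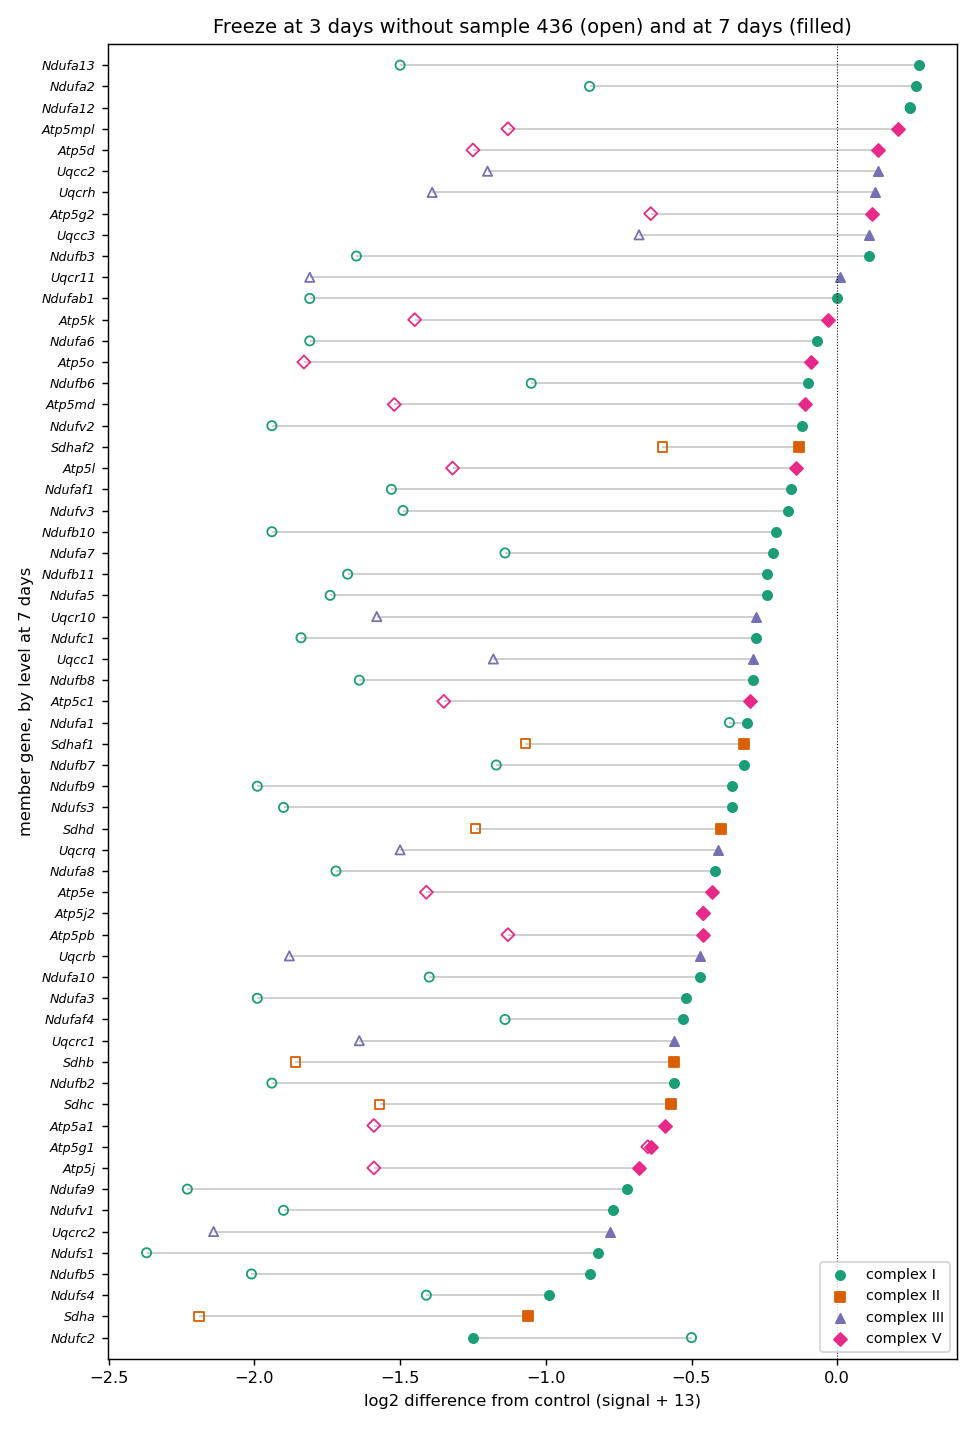
Log2 difference from control of signal + 13 (horizontal axis) for each member (vertical axis, by its value at 7 days) after freeze, at 3 days without sample 436 (open) and at 7 days (filled); the grey line joins the 2 values and the marker shape and colour give the complex. Sdha, at -2.19 and -1.06, and Ndufs1, at -2.37 and -0.82, stay left of 0 at both times, and Ndufa13, at -1.50 and 0.28, crosses it.

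Counted by non-overlap, 38 members had every contraction sample at 3 days below every control, against 15.8% of all probe sets. The number was 24 at 1 day after freeze (17.7%) and 6 at 3 days after freeze (10.6%), or 57 without sample 436 (32.9%). At 6 hours it was 2 after contraction (10.2%) and 9 after freeze (13.8%). A moderated F test over the 8 injured groups called 10 of 60 members with all arrays (26.2% of all probe sets) and 53 without sample 436 (49.3%). The mean of freeze at 3 days was the lowest of the 9 groups in 46 members with all arrays and in 56 without sample 436. The share of all probe sets with their lowest mean in that group is not given, so these counts have no background.

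The other genes of the pathway were described from lists. Of 13 complex IV subunits, which pass electrons to oxygen, 12 were on the array and 11 tested. In the freeze group at 3 days, 3 were called lower and 1 higher with all arrays, and 9 lower and 1 higher without sample 436, with a median of -0.95 and -1.73. The muscle forms Cox6a2, Cox7a1 and Cox8b fell (-1.71, -2.12 and -1.82 with all arrays, limma adjusted p = 0.0278, 0.0312 and 0.0255; -2.72, -3.40 and -2.92 without sample 436). Cox6a1, the form found in most other tissues, rose (1.38, adjusted p = 0.0143; 1.92 without sample 436), and also at 3 days after contraction (1.16, adjusted p = 0.0328). All other tested complex IV subunits lay below control 3 days after both injuries, so Cox6a1 alone rose. Cox7a2, for example, was at -0.72 3 days after freeze with all arrays (limma adjusted p = 0.101). Without sample 436 it was at -1.22 (adjusted p = 7.5e-05). No tested member of complexes I, II, III or V was called higher than control in the same fits.

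Of 7 enzymes that feed electrons to ubiquinone by other routes or make it, 3 were called lower at 1 day after freeze with all arrays, namely Etfdh, the dehydrogenase that takes electrons from fat oxidation (-1.10, limma adjusted p = 0.038), Gpd2, the mitochondrial glycerol phosphate dehydrogenase (-0.91, adjusted p = 0.0252), and Coq7 of ubiquinone synthesis (-0.95, adjusted p = 0.0324), and 6 without sample 436. Of 7 exchangers and related proteins of the mitochondrial membranes, 6 were tested, and Ckmt2, the mitochondrial creatine kinase of muscle, was the 1 called lower 3 days after freeze with all arrays (-1.74, adjusted p = 0.0306); without sample 436 it was at -2.83 and 4 were called. Of 6 genes for cytochrome c and other complex III or V proteins, 2 were on the array, and both were called lower 3 days after either injury without 436 only.

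Of 15 regulators of mitochondrial genes listed, 11 were on the array and 10 tested, and their median was -0.47 after freeze at 3 days (-0.63 without sample 436). Esrra, the oestrogen related receptor alpha, fell at 1 day after freeze (-1.38 ± 0.29, SE, n = 3 against 3, limma adjusted p = 0.00361), 3 days after freeze (-1.52, adjusted p = 0.00866; -2.02 without sample 436), 3 days after contraction (-1.15, adjusted p = 0.0198) and 7 days after freeze (-1.42, adjusted p = 0.0159). Polrmt, the mitochondrial RNA polymerase, fell at 1 day after freeze (-0.78, adjusted p = 0.00681) and 3 days after contraction (-0.70, adjusted p = 0.0214). At 6 hours after freeze, when no respiratory member was called, Gabpa, a subunit of the ETS family factor GABP, fell (-0.94, limma adjusted p = 0.00837). Ppargc1a, a coactivator of mitochondrial genes, was the 1 regulator called higher than control in any group, at 6 hours after freeze without sample 436 (1.18, limma adjusted p = 0.00669; 0.116 with all arrays). In that fit 4 regulators were called lower at that time.

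Few mitochondrial chaperones and import proteins were called: of 15 tested, 1 was lower 3 days after freeze with all arrays (Timm23, -0.97, adjusted p = 0.034) and 1 higher 3 days after contraction (Hspe1, 1.06, adjusted p = 0.046), with medians of -0.10 and 0.21. Without sample 436 there were 2 lower and 1 higher 3 days after freeze, with a median of -0.18 and Timm23 at -1.55. There were 1 lower and 2 higher 3 days after contraction. At 6 hours and at 1 day after contraction, 1 was called higher with all arrays and 2 without sample 436. The summed signal was then 12472 to 16764 and 13725 to 14630, against 9460 to 10922 in the controls. The medians were 0.02 and 0.03. Without sample 436, 1 was called lower at 6 hours after freeze and 2 each at 1 and 7 days.

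Markers of other cells and of RNA quality moved with these results. The summed signal of 12 fast muscle fibre markers was 126704 to 206169 in the controls, 76189 to 122630 at 1 day after freeze, 73872 to 102015 at 3 days after contraction and 33331 to 206387 at 3 days after freeze, where sample 436 is the highest. The fibre markers were measured in every group. In the freeze group at 3 days 6 of the 12 were called lower with all arrays and 12 without 436, with a median of -1.39 and -2.29. The 12 macrophage markers summed to 1484 to 1867 in the controls, 8873 to 11658 at 1 day after freeze, 11708 to 18526 at 3 days after contraction and 1501 to 33648 at 3 days after freeze, where sample 436 is the lowest. There 10 were called higher with all arrays and 12 without 436. No marker was at 0 on any array.

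The other marker lists held fewer genes. The 6 fibroblast markers on the array summed to 2648 to 4885 in the controls and 20972 to 21311 at 7 days after freeze, when 4 were called higher with all arrays. The 6 neutrophil markers, 5 of them tested, summed to 265 to 298 in the controls, 2556 to 4349 at 6 hours after freeze and 1717 to 3162 at 1 day after freeze, and to at most 392 at 3 days after freeze. Only S100a8 (5.47 and 5.24) and S100a9 (5.52 and 4.71) were called higher at 6 hours and 1 day after freeze. Mpo (-0.97 and -1.28) and Camp (-0.54 and -0.70) lay below control at these times, and Elane was at 0.32 and 0.03. Mpo was called lower at 1 day without sample 436 (limma adjusted p = 0.0266). The list medians were 0.32 and 0.03. Of 6 endothelium markers 1 was called lower 3 days after freeze with all arrays, with a median of -0.34, and the 3 tested fat markers had a median of -0.15. The ratio of the 3′ to the 5′ actin control probe sets was 0.56 to 0.595 in the controls, 1.01 to 1.31 at 1 day after freeze, 0.923 to 1.21 at 3 days after contraction and 0.741 to 1.09 at 3 days after freeze, while that of Gapdh stayed between 0.797 and 1.13 on all arrays. The part of fibre loss, of other cells and of RNA quality in the lower respiratory signals was not tested.

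**Figure D5:**
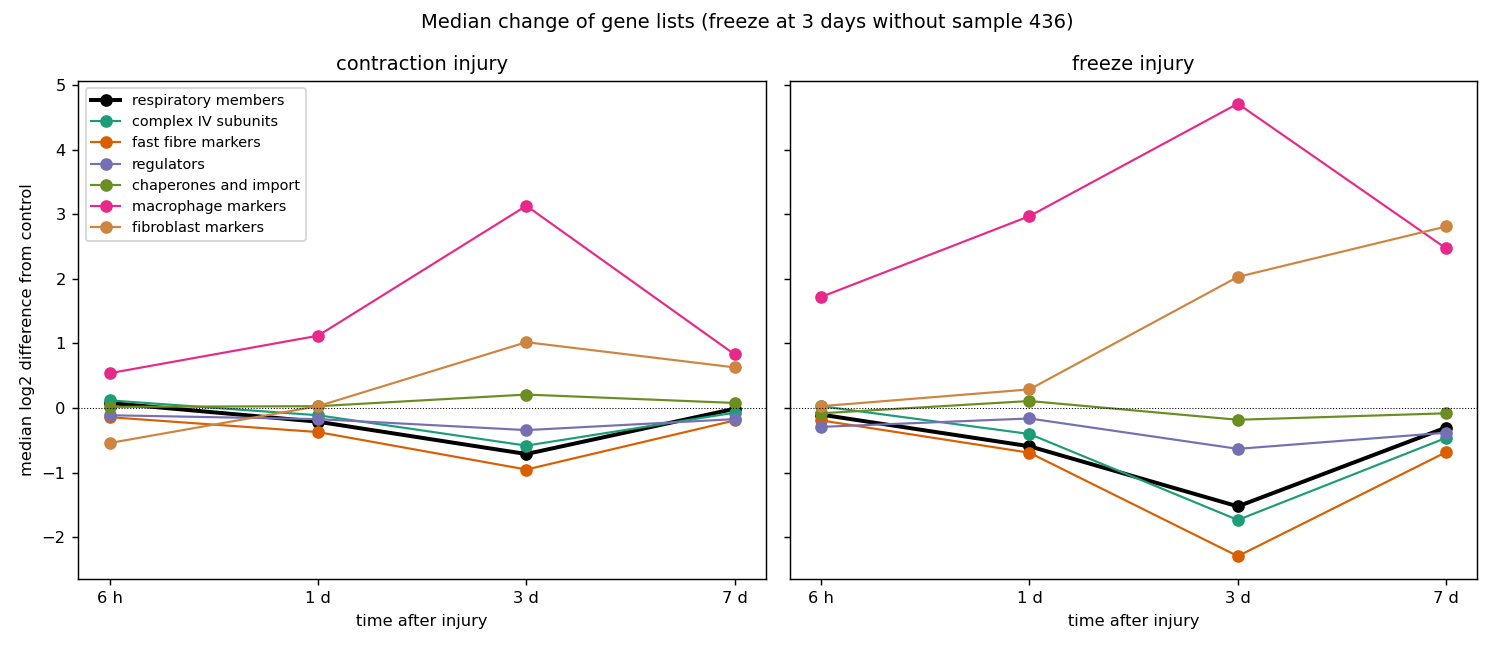
Median log2 difference from control of signal + 13 (vertical axis) over the genes of each list at 4 times (horizontal axis) after contraction (left) and freeze (right), without sample 436. The respiratory members (black, all 61) reach -0.71 and -1.52 at 3 days, between the fast fibre markers, at -0.95 and -2.29, and the regulators, at -0.34 and -0.63, while macrophage markers reach 3.13 and 4.71.

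Probe design bears on some members. Of the 61, 14 have several probe sets with this symbol and 13 are represented by a probe set whose suffix marks probes shared with other sequences or probes that break a design rule. The 13 had a median of -1.74 after freeze at 3 days without sample 436 and the other 48 had -1.50 (-0.98 and -0.92 with all arrays). For Ndufb2 a second bright probe set gave -1.20 with all arrays against -1.25 (-2.05 against -1.94 without sample 436), and for Atp5c1, the gamma subunit, -0.87 against -0.69 (-1.50 against -1.35). Dim probe sets disagreed more: the other probe set of Ndufaf1, at a mean signal of 27.7, gave -0.08 against -0.99 (-0.31 against -1.53). Another 24 protein-coding genes that RefSeq lists with these prefixes were not analysed here.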

How the data were processed

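The authors deposited 1 intensity signal per probe set and array, on a linear scale; the submitters' processing notes name MAS5, without its version. The mean of each array after trimming 2% at either end was 150.09 to 150.13, so the arrays were taken as already scaled, and changes are relative to the bulk of an array. Symbols came from the platform annotation, brought up to date through RefSeq; of 12422 probe sets that are no controls, 10833 had 1 symbol, 396 several and 1193 none. Signals were taken to log2 after adding 13. The filter kept 9506 probe sets that exceeded the 40th percentile of their array on 2 or more arrays, controls left out. limma 3.58.1 in R 4.3.3 fitted a mean per group (lmFit, contrasts, eBayes with a trend; 16 residual degrees of freedom), in 14 comparisons and 2 F tests, two-sided, with Benjamini-Hochberg adjustment over all tested probe sets. The code was tested on simulated data. Tables were made in Python 3.11.15.

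Members named were, per complex, the 3 with the lowest and the 1 with the highest difference after freeze at 1 and 3 days and contraction at 3 days, the complex II subunits, the c subunit genes and Ndufab1. Others, such as Ndufa13, Ndufs3, Ndufs4, Ndufb5 and Ndufc2, were singled out after their values were seen. The members and lists were chosen with earlier results of these data known. Alternatives changed the constant, scaling, filter, arrays fitted, probe set rule and a random block of adjacent sample numbers.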

Additional observations from a re-analysis of the deposited data

Results flagged for a closer look

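At 6 hours, the mean over the 31 members of complex I lay above the control mean on all 3 contraction samples (0.01, 0.01 and 0.21 on the log2 scale) and below it on all 3 freeze samples (-0.15, -0.05 and -0.18), a difference between the group means of -0.20. It stands here because every sample of one injury moved one way and every sample of the other the opposite way. The difference was not tested, and the controls themselves ranged from -0.28 to 0.14.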

How the results depend on the processing

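Without sample 436, members called numbered 1 and 37 at 1 and 3 days after contraction, 30, 54 and 9 at 1, 3 and 7 days after freeze, 3, 41 and 1 for freeze minus contraction at 1, 3 and 7 days, 39 and 48 for 7 days minus 3 days after contraction and freeze, 53 for any injured group and 1 for the interaction. Fitting only the 2 groups compared gave 18 for contraction at 3 days, 10 for freeze at 1 day, 0 for freeze at 3 days, 6 for freeze at 7 days, 3 for freeze minus contraction at 1 day and 26 for 7 days minus 3 days after contraction. Quantile normalization gave 5 for freeze at 1 day, and no filter gave 6 for any injured group. Apart from the fit without sample 436, counts here and below are given without the share of all probe sets. They show how the counts move and cannot be set against a background. The same holds for the counts above with another array left out.

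Leaving out 1 other array at a time gave 0 to 8 members for contraction at 3 days, 0 to 5 for freeze at 1 day, 0 to 19 for freeze at 3 days, 0 to 1 for 7 days minus 3 days after contraction and 3 to 9 for any injured group. The count for contraction at 3 days was 0 without its sample 435, and that for freeze at 1 day was 0 without control 1 or its sample 464. Averaging a gene's probe sets turned the sign of Ndufa1 (0.03) and Atp5g2 (0.04) for contraction at 3 days, both uncalled. The causes were not tested. Of 84 values of named members, 42 were called only without sample 436. The groups share no replicate number, but most contraction and freeze samples of a time have adjacent numbers, which the labels do not explain. With adjacent numbers as a random block the correlation was -0.0937, and members called numbered 4 for freeze at 1 day, 23 for freeze at 3 days and 14 for any injured group, with the other counts as before.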
